A study of Homo sapiens with 6 samples.

Results

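The 39 protein-coding HOX genes, 11 in the HOXA, 10 in the HOXB, 9 in the HOXC and 9 in the HOXD cluster, were examined in RNA-seq of the human glioblastoma cell line T98G. They were taken by symbol (HOX, a cluster letter and a number) from the 57133 symbols of the count table. The rule itself uses no measured value, but it was chosen with earlier results of these data known. All 6 libraries came from T98G cells in which CBX8 had been knocked out. The cells carried either the empty TetO-FUW vector (CBX8 KO, n = 3) or the same vector with WT CBX8 (WT CBX8 re-expression, n = 3), and both groups received doxycycline at 1 µg/ml for 72 h. The genotype label of the re-expression libraries reads wild type, but by their titles and the study's methods they are the knockout line with CBX8 returned. The 2 groups are separate stable lines made by lentiviral transduction and drug selection, so the vector integrations and the presence of CBX8 cannot be told apart, and nothing in the labels ties the 3 libraries of a group to separate derivations of a line. P-values therefore measure the spread between these libraries.

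HOX genes encode homeodomain transcription factors that give positional identity along the body axis. They lie in 4 clusters in which the order of the genes follows the order of their domains in the embryo, from the anterior low-numbered to the posterior high-numbered paralogs. Polycomb repressive complexes keep clusters silent outside those domains, through trimethylation of histone H3 at lysine 27 and ubiquitination of histone H2A, and CBX8 is a chromodomain subunit of canonical PRC1, the complex that reads the former mark. The comparison asks which HOX transcripts differed between cells without CBX8 and cells in which it was returned.

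Total counts per library lay between 7950190 and 8659796. CBX8 itself had 96, 104 and 83 counts in CBX8 KO and 30372, 31408 and 27791 in WT CBX8 re-expression. On the CPM scale, in which counts are divided by library size after TMM scaling, these are 11.7 ± 0.940 and 3489 ± 156 (mean ± SD, n = 3 per group). The log2 fold change was 8.22 (SE 0.08), so the libraries match their labels. No library came from cells with unedited CBX8, so the re-expressed level cannot be set against the endogenous one. The transcript left in the knockout does not show whether the coding sequence was intact. Of 10 glioma markers 6 were abundant enough to test, led by VIM and CD44, while SOX2 and S100B had no count in any library. Among the glioma markers, TNC rose from 63.4 ± 4.40 to 167 ± 10.1 CPM (log2 fold change 1.39) and CD44 fell by 0.21 on the log2 scale, and their part in the HOX values was not tested. Summed markers of blood, epithelium and endothelium reached at most 0.705 CPM in any library, and those of neurons 12.4 to 13.8 CPM in CBX8 KO and 14.4 to 17.2 CPM in WT CBX8 re-expression. In bulk RNA, fewer expressing cells and less RNA per cell cannot be told apart.

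HOX transcripts were a small part of the RNA, and a pair of HOXC genes made up most of it. The 39 genes together held 11007 counts, between 0.0211% and 0.0238% of the counts of a library. HOXC13, a regulator of hair and nail keratins, held 33.5% of them and HOXC10, known for its part in lumbar motor neuron identity, held 23.7%. Their neighbours were far lower. Of the 39 genes, 23 passed the filter on low counts and were tested, 14 had some counts but too few for the test, and HOXB1 and HOXB2 had none in any library. For these 2 genes, 3 counts over the 6 libraries set a limit of 0.0601 CPM, which covers counting error only.

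**Figure D1:**
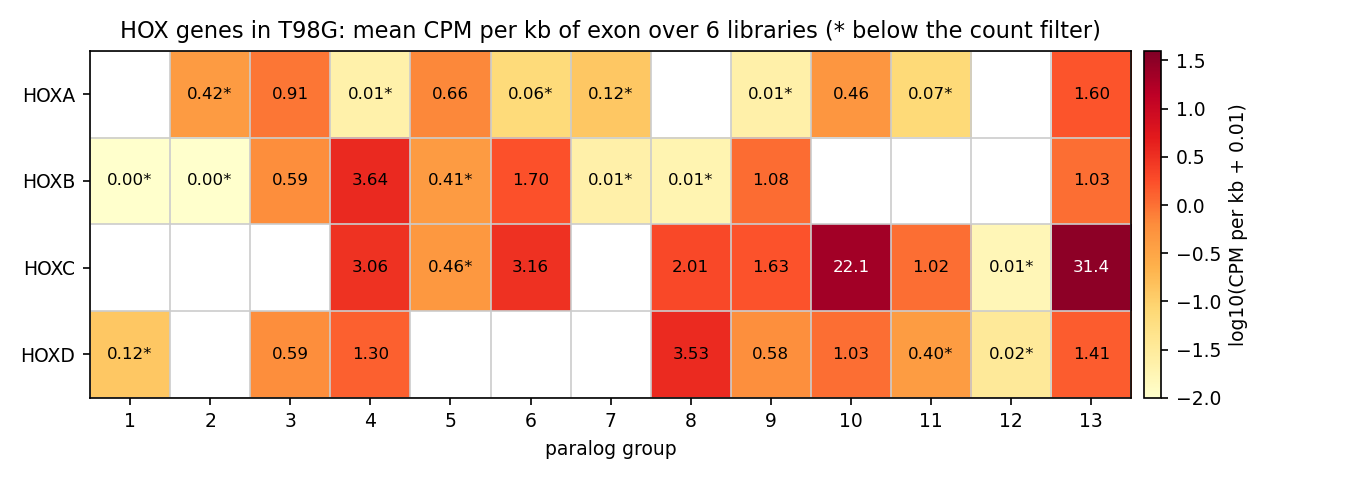
Level of 38 of the 39 HOX genes as mean CPM per kilobase of exon over the 6 libraries, arranged by cluster (rows) and paralog group (columns), with colour on a log10 scale and an asterisk for genes below the count filter. HOXC13 (31.4) and HOXC10 (22.1) stand above every other gene, and the highest of the rest is HOXB4 at 3.64 CPM per kilobase.

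Per kilobase of exon, which allows levels to be compared between genes, HOXC13 stood at 31.4 ± 1.45 CPM and HOXC10 at 22.1 ± 0.860 CPM (mean ± SD over 6 libraries). HOXB4, HOXD8, HOXC6, HOXC4 and HOXC8 followed with 3.64, 3.53, 3.16, 3.06 and 2.01 CPM per kilobase. The steps from HOXC13 to HOXC10 and from HOXC10 to HOXB4 exceeded the range over libraries. The other 20 of the 22 neighbouring pairs in the order of the 23 tested genes overlapped in that range. With the length of 1 canonical transcript in place of all exons, the set of the 10 highest genes was the same but the order after HOXC10 changed. HOXC6 then stood at 6.61 and HOXC4 at 4.96 CPM per kilobase, above HOXB4 at 3.64, and the range of HOXC6 over libraries (5.89 to 7.19) no longer overlapped that of HOXB4 (2.88 to 4.64).

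HOXC was the cluster with most of the signal, 71.2% of all HOX counts. It covers chr12:53938831-54056030 (hg38, plus strand), and 7 of its 9 genes were tested. HOXC13 had 583, 638 and 601 counts in CBX8 KO and 656, 631 and 573 in WT CBX8 re-expression, and HOXC10 had 437, 460 and 400 against 437, 453 and 421. Neither gene separated the groups. In CPM, HOXC13 was 75.4 ± 1.70 against 72.5 ± 4.46 and HOXC10 was 53.7 ± 2.16 against 51.1 ± 0.852. Their log2 fold changes (WT CBX8 re-expression over CBX8 KO throughout) of -0.06 (95% interval -0.18 to 0.07) and -0.07 (-0.21 to 0.07) were the most precise of the family. HOXC12, which lies between HOXC13 and HOXC11, had 1 count in 1 library.

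Among the lower HOXC genes, HOXC8 and HOXC11 had the larger differences. HOXC8, a brachial and thoracic gene, had 33, 36 and 34 counts in CBX8 KO and 55, 34 and 50 in WT CBX8 re-expression. HOXC11 had 25, 25 and 19 counts against 39, 24 and 35. In both genes the re-expression replicates 1 and 3 were high. Scaled for depth, replicate 2 lay below the knockout range for HOXC8 (3.88 against 4.16 to 4.35 CPM) and within it for HOXC11. The log2 fold changes were 0.35 (SE 0.21) for HOXC8 and 0.42 (SE 0.25) for HOXC11, and neither passed the test (edgeR quasi-likelihood test with Benjamini-Hochberg adjustment, adjusted p = 0.325 and 0.310). HOXC4, HOXC6 and HOXC9 had log2 fold changes of 0.13, 0.05 and 0.17. HOXC5, whose exons are shared with other genes over 67.3% of their length, had 13 counts over the CBX8 KO libraries and 24 over the WT CBX8 re-expression libraries and was not tested.

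HOXA covers chr7:27092993-27200091 (hg38, minus strand) and held 8.87% of HOX counts. HOXA13, needed for digits and the genital tubercle, was its most abundant gene in counts, with 53, 64 and 59 in CBX8 KO and 82, 66 and 81 in WT CBX8 re-expression. Replicates 1 and 3 of the re-expression group were high and replicate 2 lay within the knockout range once scaled for depth. The levels were 7.28 ± 0.514 and 8.94 ± 1.21 CPM and the log2 fold change 0.29 (SE 0.15; 95% interval -0.02 to 0.61), with an adjusted p of 0.235 by the edgeR quasi-likelihood test, the lowest of the HOX genes. HOXA10, a gene of uterine development, had 11, 20 and 17 counts against 12, 8 and 17, a log2 fold change of -0.46 (SE 0.35; 95% interval -1.17 to 0.26), and the groups overlapped.

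The lower-numbered HOXA genes that were tested showed low, overlapping values. HOXA3, needed for the thymus and parathyroid, had 37, 41 and 27 counts in CBX8 KO and 24, 33 and 34 in WT CBX8 re-expression. HOXA5, known for its part in lung development, had 4, 12 and 12 against 8, 11 and 10. Their log2 fold changes were -0.29 and -0.04. On either side of HOXA5, HOXA4 and HOXA6 had 1 and 4 counts over all 6 libraries. HOXA9, HOXA7, HOXA11 and HOXA2 had 2, 14, 9 and 48, and none of these was tested.

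HOXD covers chr2:176092721-176190907 (hg38, plus strand) and held 9.57% of HOX counts. HOXD8 was its most abundant gene, with 76, 66 and 64 counts in CBX8 KO and 91, 91 and 75 in WT CBX8 re-expression. Scaled for depth these are 8.54 ± 0.926 and 10.0 ± 0.946 CPM, overlapping, with a log2 fold change of 0.23 (95% interval -0.06 to 0.52). HOXD13, a digit gene, had 31, 29 and 26 counts against 22, 32 and 29, and HOXD12 beside it had 2 counts in the first group and 1 in the other. HOXD3 and HOXD4 had log2 fold changes of 0.31 and 0.30, HOXD9 of 0.23 and HOXD10, a lumbar motor neuron gene, of -0.04. The intervals of HOXD4 and HOXD9 reached 1.06 and 1.10, so a doubling of these transcripts was within them. HOXD1 and HOXD11 had 11 and 42 counts in all and were not tested.

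HOXB covers chr17:48528526-48728750 (hg38, minus strand) and held 10.3% of HOX counts. HOXB4, known for expanding blood stem cells, had 67, 51 and 45 counts in CBX8 KO and 79, 59 and 62 in WT CBX8 re-expression, a log2 fold change of 0.21 (95% interval -0.15 to 0.57) with overlapping groups. HOXB13, a prostate gene that lies apart from the rest of the cluster, had 28, 25 and 26 counts against 30, 27 and 20. HOXB3, HOXB6 and HOXB9 had log2 fold changes of -0.07, 0.02 and -0.02. HOXB7 and HOXB8 had 1 count each over the 6 libraries, and HOXB5 had 38.

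**Figure D2:**
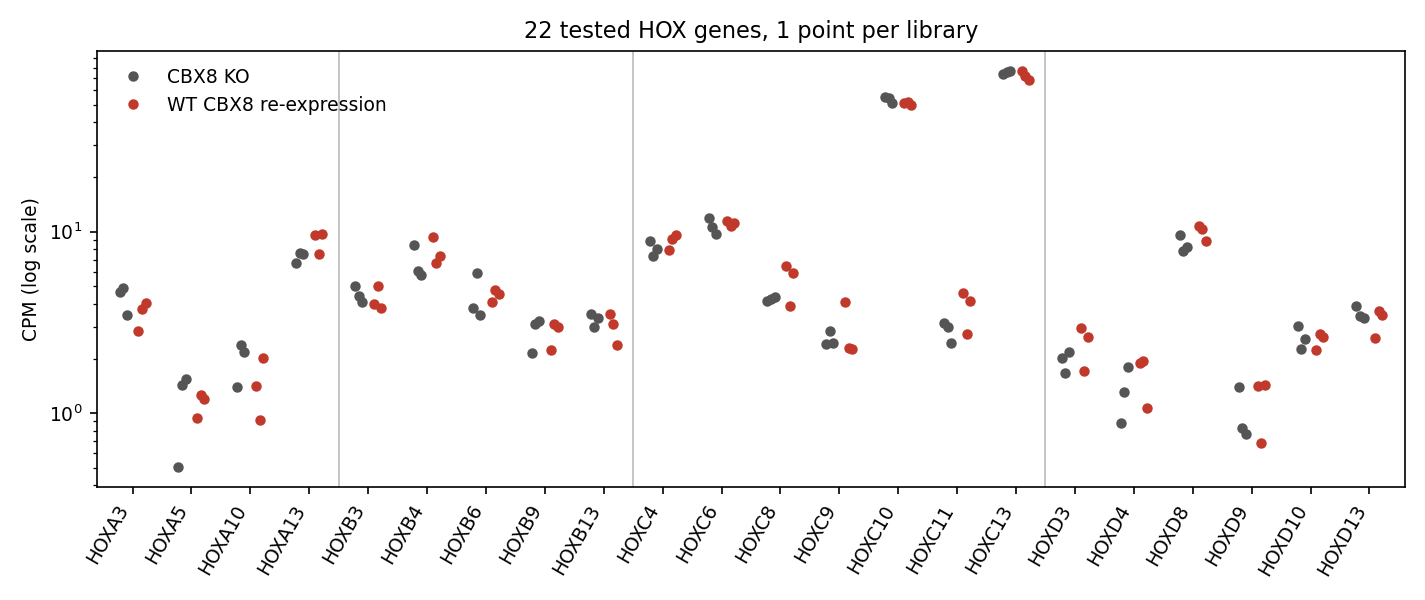
CPM on a log axis of 22 of the 23 tested HOX genes, 1 point per library, with CBX8 KO in grey and WT CBX8 re-expression in red. HOXC13 and HOXC10 lie far above the other genes in each library, and the ranges of the groups overlap in CPM for all 22 genes shown.

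Silent and expressed genes lay side by side, and the start sites of 2 such adjacent pairs are shown from the RefSeq promoter table. It held 20 of the 39 genes, in 27 windows. HOXC13 and HOXC10 were not matched. The 250 bases before the start of HOXD13 (chr2:176092471-176092720, plus strand), HOXD12 (chr2:176099545-176099794, plus strand), HOXA13 (chr7:27200092-27200341, minus strand) and HOXA11 (chr7:27185233-27185482, minus strand) follow, 5′ to 3′ from GRCh38.p14, with each CG dinucleotide in capitals because CpG-rich DNA is where Polycomb complexes are known to gather.
HOXD13: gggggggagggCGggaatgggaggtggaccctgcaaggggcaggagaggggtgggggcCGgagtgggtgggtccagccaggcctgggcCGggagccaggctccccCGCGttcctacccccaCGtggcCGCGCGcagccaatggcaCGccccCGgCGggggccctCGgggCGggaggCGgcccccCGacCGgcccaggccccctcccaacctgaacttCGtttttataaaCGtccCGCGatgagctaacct
HOXD12: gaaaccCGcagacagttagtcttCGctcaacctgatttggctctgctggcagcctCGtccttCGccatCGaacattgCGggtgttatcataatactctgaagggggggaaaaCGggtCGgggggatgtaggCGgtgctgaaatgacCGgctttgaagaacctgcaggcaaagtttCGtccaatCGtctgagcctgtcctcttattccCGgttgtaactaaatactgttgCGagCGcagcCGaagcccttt
HOXA13: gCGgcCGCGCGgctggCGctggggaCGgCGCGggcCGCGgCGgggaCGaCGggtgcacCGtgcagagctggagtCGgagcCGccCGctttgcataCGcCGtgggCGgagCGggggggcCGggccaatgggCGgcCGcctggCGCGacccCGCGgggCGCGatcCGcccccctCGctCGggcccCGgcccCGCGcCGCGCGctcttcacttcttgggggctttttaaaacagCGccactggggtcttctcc
HOXA11: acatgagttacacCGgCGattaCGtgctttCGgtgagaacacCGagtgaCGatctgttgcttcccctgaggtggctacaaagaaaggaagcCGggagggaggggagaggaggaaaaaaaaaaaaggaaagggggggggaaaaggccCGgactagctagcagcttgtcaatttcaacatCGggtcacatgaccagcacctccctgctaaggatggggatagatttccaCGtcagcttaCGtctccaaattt

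The window of HOXD13 holds 21 CG and that of HOXD12, nearly without counts, 16. HOXA13 holds 40, a number that 2.2% of all windows reach, and HOXA11, with 9 counts in all and 27.2% of its exon length shared with other genes, holds 11. These 2 pairs do not stand for the family: the median was 19 CG over the 16 windows of tested HOX genes and 20 over the 11 of genes not tested. The median over the 27 HOX windows was 19 CG, against 11 over all 35116 windows. Windows do not stand for genes here, since 7 of the 27 belong to HOXA3 and HOXC4 and HOXC5 share the same window. The letters TATAAA, searched on both strands, stood in 5 of 27 HOX windows (18.5%) and in 10.7% of all windows.

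By paralog group, the counts lay towards the posterior end. Group 13 held 40.1% of HOX counts and group 10 held 25.6%, while groups 4 and 8 held 7.81% and 6.41%. Each member was tested in groups 3, 10 and 13, and no member in groups 2, 7 and 12. The posterior share was carried by HOXC13 and HOXC10. Other posterior genes ran from 1 count over all libraries (HOXC12) to 405 (HOXA13).

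No HOX gene passed the test between the groups. Of the 23 tested members 0 passed FDR < 0.05 in the edgeR quasi-likelihood test, against 12.9% of the 14461 genes tested (6.23% higher and 6.63% lower), and 0 had an unadjusted p under 0.05, against 25.3%. DESeq2 and limma voom also gave 0 by either measure. In none of the 23 did the 3 libraries of one group lie outside the range of the other in CPM, which 28.9% of tested genes did. Detection depends on depth: among tested genes with 1 to 12 mean CPM, where 21 of the HOX genes lie, 6.78% were called and 21.2% did not overlap, and among those with 50 to 80 mean CPM, where HOXC13 and HOXC10 lie, 17% were called and 33.7% did not overlap.

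**Figure D3:**
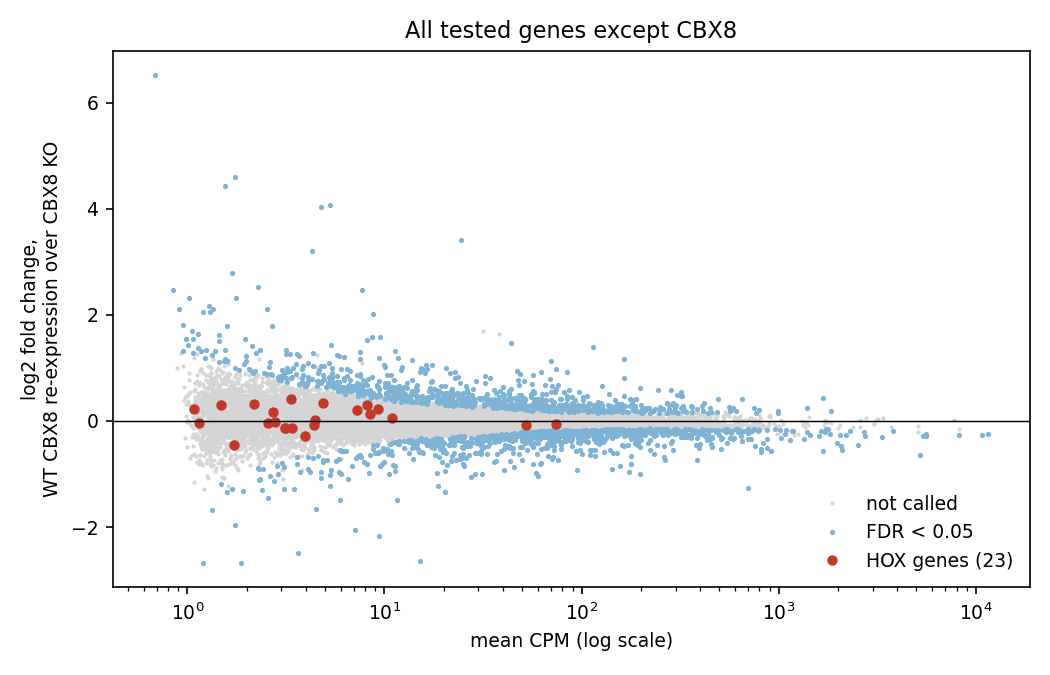
Log2 fold change (WT CBX8 re-expression over CBX8 KO) against mean CPM on a log axis for all tested genes except CBX8, with genes past FDR < 0.05 in blue, other genes in grey and the 23 tested HOX genes in red. The HOX genes lie between -0.46 and 0.42 and none is past the threshold.

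The size of the differences that the data leave room for varied over the family. The 23 log2 fold changes ran from -0.46 (HOXA10) to 0.42 (HOXC11), with 12 above and 11 below 0 and a median of 0.02, against 0.00 over all tested genes. Each of the 23 intervals (95%) covered 0. For 20 genes the interval stayed within 1 log2 unit on either side, and for 5 within 0.5. Their widths ran from 0.249 to 1.74 log2 units. The smallest log2 fold change called in the whole table was 0.14 in size. No gene, HOX or other, was called at the median size over all tested genes (0.13 log2 units, either direction). The 0.14 is not the smallest size that could be called in most HOX genes. Those with 1 to 12 mean CPM had SE from 0.13 (HOXC6) to 0.42 (HOXD9).

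**Figure D4:**
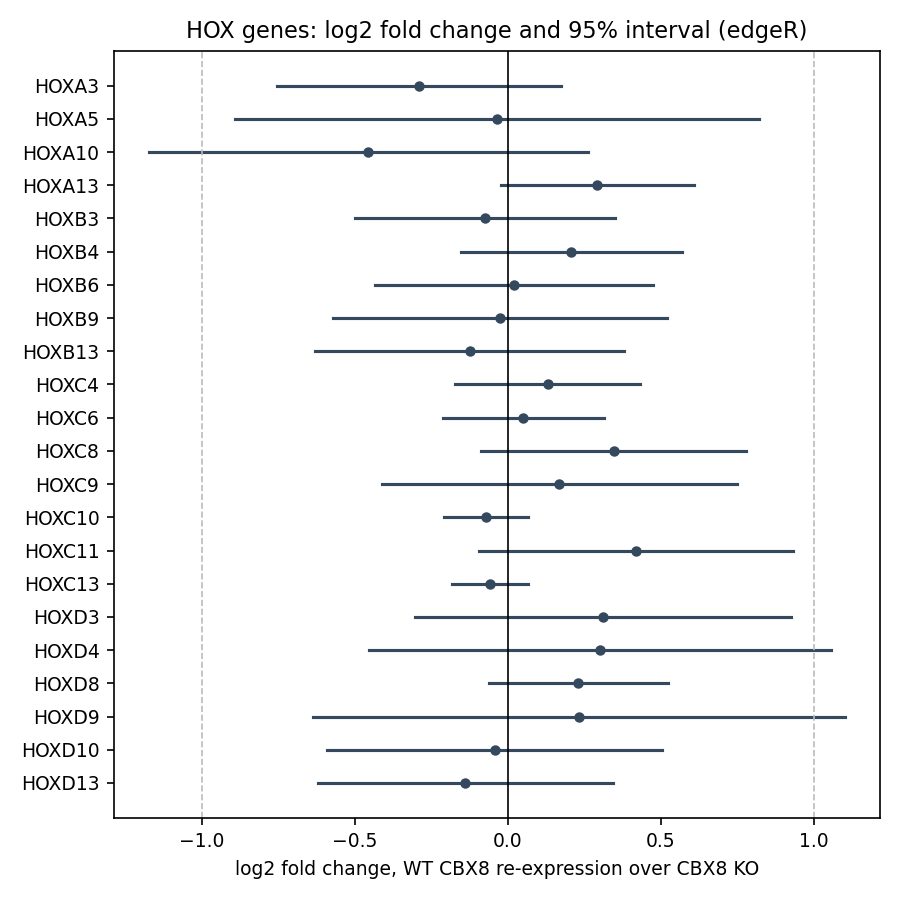
Log2 fold change (WT CBX8 re-expression over CBX8 KO) of 22 of the 23 tested HOX genes with their 95% intervals, by cluster. All 22 intervals shown cross 0, and those of HOXC13 and HOXC10 are the narrowest.

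Summed over the members, the clusters also did not separate the groups. HOXA summed to 19.5 ± 1.46 CPM in CBX8 KO and 19.6 ± 1.28 CPM in WT CBX8 re-expression, and HOXB to 22.5 ± 1.94 and 23.2 ± 1.22 CPM. HOXC summed to 158 ± 2.13 and 157 ± 6.14 CPM. HOXD was 21.5, 18.5 and 19.8 CPM in CBX8 KO and 23.4, 22.5 and 21.0 CPM in WT CBX8 re-expression, a log2 ratio of 0.16. Its highest knockout library lay above its lowest re-expression library. The median log2 fold change of the tested members was -0.14 in HOXA, -0.02 in HOXB, 0.13 in HOXC and 0.23 in HOXD, each from 5 to 7 genes that did not pass the test.

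**Figure D5:**
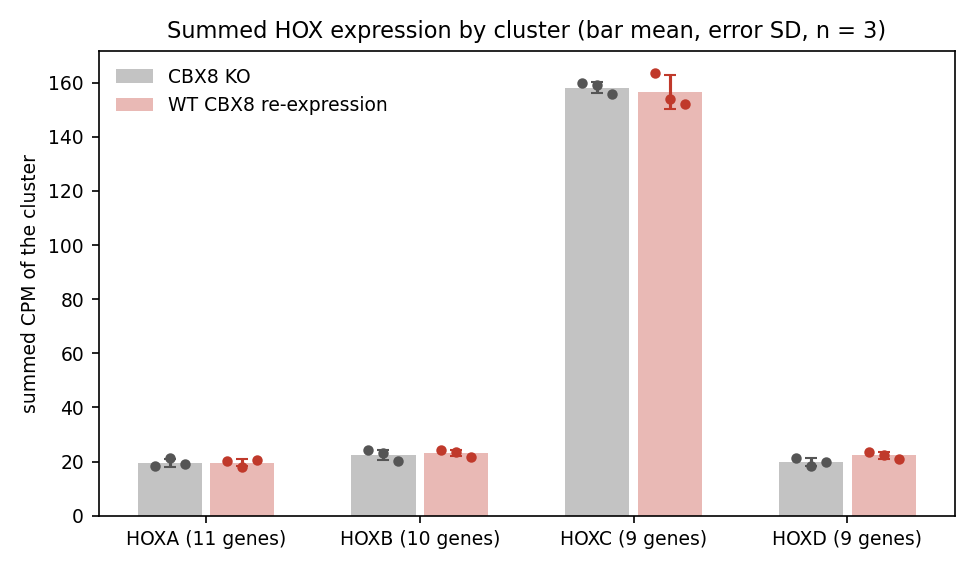
Summed CPM of the members of each HOX cluster in the 6 libraries, by group, with bars for the mean, error bars for the SD (n = 3) and a point per library. HOXC lies near 157 CPM and the other clusters near 20 CPM, and the groups overlap in each cluster.

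The 14 genes with some counts but too few for the filter had at most 12 counts in a library and 48 in all. Fitted without the filter, none of them passed the test (adjusted p 0.569 to 0.982, edgeR quasi-likelihood). HOXC5 and HOXD1 were higher in WT CBX8 re-expression without overlap in CPM. They had 13 and 3 counts over the CBX8 KO libraries against 24 and 8. The share of all genes below the filter without overlap was not computed. Low counts were not limited to genes with shared exons: HOXB7, HOXB8, HOXC12 and HOXD12, with 1 to 3 counts in all, share 0% of their exon length with another gene. Counts of HOXA7 (62.5% shared), HOXD1 (60.1%), HOXA4 (47.8%), HOXA6 (40.1%), HOXB6 (33.0%), HOXA11 (27.2%), HOXA9 (27.0%), HOXA10 (26.3%) and HOXD8 (24.4%) are uncertain, since the counting program and its strand setting are not given in the sources used here. Genes with smaller shares are open to the same doubt, among them HOXD11 (21.4%), HOXA3 (19.85%), HOXD10 (18.2%), HOXC4 (17.5%) and HOXC6 (16.1%). No HOX gene had another locus in hg38 matching 95% of its bases.

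Other transcripts of the clusters and genes listed as their neighbours did not pass the test either. Of 26 other transcripts of the clusters found in the table, most of them antisense or long noncoding and the rest microRNA genes, PRAC1 and PRAC2, 10 were tested and 0 called. HOTAIRM1, from the HOXA cluster, had 98, 107 and 112 counts in CBX8 KO and 115, 96 and 98 in WT CBX8 re-expression, and HOTAIR, from the HOXC cluster, had 82, 93 and 84 against 104, 94 and 90. HOXC-AS3, named after its values were seen, had 48, 33 and 37 counts against 32, 29 and 32, lower without overlap in CPM but with an adjusted p of 0.216. Of 14 genes listed as neighbours of the clusters, 10 were tested and 0 called, the most abundant being ATP5MC3 (log2 fold change -0.10) and CBX5 (0.14). Their distances from the clusters were not measured, and not all need be adjacent.

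Partners of HOX proteins and activators of HOX transcription were also read against the 12.9% of all tested genes that were called. Of 9 TALE homeobox genes, whose products bind DNA together with HOX proteins, 7 were tested, 2 rose and 0 fell. MEIS3 had 75, 96 and 77 counts in CBX8 KO and 151, 144 and 152 in WT CBX8 re-expression, a log2 fold change of 0.76 (SE 0.12). The groups did not overlap, and the adjusted p (edgeR quasi-likelihood) was 4.7e-05. Another locus in hg38 matched 92.7% of the bases of the MEIS3 transcript, and how reads shared with it were counted is not given. MEIS2 and PKNOX1, the most abundant of the list, had log2 fold changes of -0.05 and 0.06.

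Of 18 activators of HOX transcription, 14 were tested, 1 rose and 1 fell, a share near that over all tested genes (12.9%). RARB, a retinoic acid receptor, had 703, 737 and 603 counts in CBX8 KO and 549, 479 and 531 in WT CBX8 re-expression, and it fell by 0.48 on the log2 scale (SE 0.07; edgeR quasi-likelihood adjusted p = 1.8e-05). KMT2A, a histone H3 lysine 4 methyltransferase that maintains HOX expression, had 1199, 1112 and 1238 counts against 1220, 1556 and 1696. Its groups overlapped, and its log2 fold change of 0.24 (SE 0.08) passed narrowly (edgeR quasi-likelihood adjusted p = 0.045) and lost the call in 6 of 15 alternatives, among them DESeq2 (adjusted p = 0.479) and limma voom (0.067). Among the 15, the FDR < 0.1 alternative reuses the main fit and could not end the call. The libraries whose removal ended the KMT2A call were CBX8 KO replicates 1 and 2 (adjusted p = 0.097 and 0.260, edgeR quasi-likelihood) and WT CBX8 re-expression replicates 2 and 3 (0.140 and 0.339). RXRA, a partner of the retinoic acid receptors and the other most abundant gene of the list, had a log2 fold change of 0.01. Of 11 ParaHox and related homeobox genes, 2 were tested, MNX1 (log2 fold change 0.15) and GBX2 (0.69), and 0 were called.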

How the data were processed

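RNA-seq of 6 libraries (3 CBX8 KO, 3 WT CBX8 re-expression) was used. The values deposited by the authors are raw, unscaled counts for each gene symbol, made after trimming with Trimmomatic and alignment to hg38 with HISAT2; the counting program, annotation and strand setting are not given in the sources used here. Each row was read as deposited, and intervals from depth cover counting error only, since reads carry no molecular identifiers. The filterByExpr function of edgeR 4.0.16, run under R 4.3.3, left 14461 of 57133 symbols (29123 had no count). Libraries were scaled by TMM and compared by glmQLFit and glmQLFTest with the group as the only term, two-sided. Benjamini-Hochberg adjustment ran over all tested genes, with FDR < 0.05 as threshold. The SE was the size of the log2 fold change over the root of F, and 95% intervals used the t distribution. Exon lengths and overlaps came from GENCODE 44, other copies from minimap2 2.31, and promoter windows from RefSeq (GRCh38.p14). The fit was tested on simulated data. The named genes are all HOX members and, of each other list, those past the threshold and the 2 of highest mean CPM; the values of 2 of these genes are not reported here. The members and lists were chosen with earlier results of these data known. Replicates of a group differed by more than sampling noise (chi-square per degree of freedom 2.03 to 3.07). Alternatives were RLE and library size scaling, 2 filters, the newer quasi-likelihood method, FDR < 0.1, DESeq2 1.42.0, limma voom (limma 3.58.1), a replicate block, canonical transcript length, and each library left out.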

Additional observations from a re-analysis of the deposited data

How the results depend on the processing

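The count of HOX genes called was 0 higher and 0 lower in each alternative run, with adjusted p of 0.121 or more for the 23 genes. At an unadjusted p under 0.05, 1 HOX gene passed with library size scaling (HOXA13) and 3 without WT CBX8 re-expression replicate 2 (HOXA13, HOXC11 and HOXC8, log2 fold changes 0.40, 0.61 and 0.54). Over the whole table, 901 genes were called higher and 959 lower. DESeq2 called 501 higher, and library size scaling called 1400 higher and 592 lower, moving the median log2 fold change of all genes from 0.00 to 0.06. Leaving out 1 library gave 593 to 792 higher and 635 to 851 lower, lowest without WT CBX8 re-expression replicate 2. The FDR < 0.1 alternative reuses the main fit, so its values could not change direction. Of 345 HOX gene values under alternatives, 326 kept their direction and side of the threshold and 19, of 8 genes, changed sign. None passed the threshold. With library size scaling these were HOXA5 (0.0181), HOXB9 (0.0294) and HOXD10 (0.0118), and with limma voom HOXA5 (0.0900). With 1 library left out, log2 fold changes ran from -0.39 to 0.20 for HOXA5, -0.21 to 0.00973 for HOXB3, -0.13 to 0.30 for HOXB6, -0.18 to 0.10 for HOXB9, -0.26 to 0.0107 for HOXB13, -0.0138 to 0.13 for HOXC6, -0.18 to 0.31 for HOXC9 and -0.14 to 0.0728 for HOXD10. Genes that kept their sign moved too, HOXA10 from -0.77 to -0.21, HOXA3 from -0.43 to -0.15, HOXB4 from 0.06 to 0.40, HOXC8 from 0.20 to 0.54, HOXC11 from 0.27 to 0.61, HOXD3 from 0.15 to 0.51, HOXD4 from 0.08 to 0.56 and HOXD9 from 0.07 to 0.54. The cause was not tested. Same-numbered replicates did not deviate together (correlations -0.06, -0.04 and -0.03 over 14435 genes). This gave no sign that the numbers pair the libraries but cannot exclude it, since counting noise weakens such correlations. With the replicate block 739 genes were called higher and 766 lower, with 0 HOX genes.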
